A study of Mus musculus with 143 samples.

Results

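Described here are 7 mouse genes, Rbm44, Rnf169, Kcnh1, Sspn, Stk36, Flt1 and Zfp871, out of 55740 gene identifiers counted in single oocytes that lack ribonucleases of the RNA exosome. They were picked for a large difference from control in 1 or more of 3 knockouts at the stage labelled p20, taken here as postnatal day 20, and no numeric threshold was applied. Ranked by the size of the log2 fold change among 15882 genes, Rnf169 was 279th and Rbm44 290th in the Dis3 knockout, and Sspn was 74th, Stk36 208th and Kcnh1 683rd in the Exosc10 knockout. In the knockout of both genes, Zfp871 was 41st and Flt1 225th. Because these p20 differences chose the genes, they are given below as levels without a test. All 3 p20 differences from control also share the same 8 control oocytes. The differences between dcKO and the single knockouts are built from the same p20 values and also carry no test. Dis3 cKO against control in adult oocytes and in poly(A) libraries played no part in the choice and was tested.

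The nuclear RNA exosome is a multi-subunit complex that trims and degrades RNA from its 3′ end. Its core is inactive by itself, and associated ribonucleases do the cutting: DIS3, an exonuclease and endonuclease at the base of the core, and EXOSC10, a distributive exonuclease at the top that is concentrated in the nucleolus. In growing oocytes, transcripts are made and stored in quantity and then used without new transcription when meiosis resumes, so the balance of synthesis and decay sets the maternal RNA store.

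Single oocytes were sequenced after removal of ribosomal RNA (RiboMinus, 48 libraries) or after capture of polyadenylated RNA on oligo-dT beads (poly(A), 71 libraries), and bulk oocytes were profiled by CUT&Tag, which cuts and tags chromatin at an antibody's target (21 peak lists used). RiboMinus groups held 8 oocytes each: p20 control, p20 Dis3 conditional knockout (cKO, labelled dis3cKO), p20 Exosc10 cKO (labelled exo10cKO), p20 dcKO, adult control and adult Dis3 cKO at the germinal vesicle stage (GV, prophase arrest with an intact nucleus). Poly(A) libraries cover GV oocytes, GV oocytes after 3 h of culture (GV3h) and eggs at metaphase II (MII, after ovulation), with 8 controls at each stage and 15, 16 and 16 Dis3 cKO oocytes. CUT&Tag groups held 3 libraries each, for the repressive histone mark H3K27me3 (adult control, adult Dis3 cKO, p20 control and p20 dcKO) and for RNA polymerase II (Pol II, the same groups without p20 dcKO). Titles of the Pol II libraries carry the label pols2s5, and Pol II stands for the target of that label throughout.

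The labels do not spell out dcKO, and both Dis3 and Exosc10 were low in it. GV and GV3h oocytes were dissected from ovaries and kept in M2 medium, MII eggs came from oviducts of superovulated females, and the mutant mice were made with CRISPR/Cas9. The Cre driver, the alleles of the controls, the number of females and the number of oocytes per CUT&Tag library are not given in the labels. Titles of RiboMinus oocytes carry 1 of 2 tags per group with 4 oocytes each (AM1758 and AM1759 for adult controls, AM1713 and AM1757 for adult Dis3 cKO, 1 and 2 at p20). The labels do not say what a tag marks, and nothing states that oocytes came from separate females, so the p-values measure the spread between these oocytes.

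All levels are counts per 1000000 after TMM scaling (CPM), and fold changes are log2 values with standard errors (SE) from edgeR. The total of gene counts was 8492102 to 35429028 in a RiboMinus library and 4843964 to 15412200 in a poly(A) library. Dis3 was 13.6 ± 4.84 CPM in p20 controls, 2.01 ± 0.914 in Dis3 cKO and 2.82 ± 0.953 in dcKO (SD, n = 8), and Exosc10 was 117 ± 12.01, 121 ± 13.4 and 7.25 ± 4.47 CPM in the same groups. In Exosc10 cKO, Exosc10 was 3.12 ± 3.35 CPM and Dis3 16.5 ± 3.76 CPM. Dis3 differed between the tags of the control groups: it was 17.7 ± 1.80 and 9.47 ± 2.56 CPM at p20, and 21.2 ± 1.23 (AM1758) and 10.5 ± 1.59 (AM1759) in adults (SD, n = 4). All 12 oocyte markers listed were at 1 CPM or more in every group, and markers of other ovarian cells were also counted. The 11 granulosa or cumulus markers summed to 83.2 to 195 CPM in RiboMinus oocytes, led by Nr5a2, with none at 0 in all oocytes of a group. The 6 blood markers summed to 2.89 to 8.76 CPM, led by Csf1r, with Hba-a1 and Hbb-bs at 0 in every RiboMinus oocyte. The part of such cells in the levels below was not tested.

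Read by which knockout moved them at p20, the genes fall into 4 patterns. Rbm44 and Rnf169 were 4.97-fold and 5.03-fold lower without Dis3 and near the control level without Exosc10. Kcnh1 and Sspn were 2.94-fold and 13.9-fold lower without Exosc10, with small differences without Dis3. Stk36 was 5.91-fold and 5.71-fold higher in the single knockouts of Dis3 and Exosc10. Flt1 and Zfp871 differed most in dcKO, Flt1 downward by 21.7-fold and Zfp871 upward by 106-fold; in Dis3 cKO and Exosc10 cKO, Zfp871 was 4.11-fold and 3.33-fold higher and overlapped the controls. The Zfp871 value rests on controls near the floor: its log2 difference of 6.72 became 7.56 without control oocyte 4 of tag 2. Among all 15882 genes, edgeR called 7.37% in Dis3 cKO (3.61% higher, 3.76% lower), 7.45% in Exosc10 cKO (3.95% higher, 3.50% lower) and 53.7% in dcKO (26.6% higher, 27.1% lower) against control. In the same order, the oocytes of the groups compared did not overlap in CPM for 2.68%, 1.76% and 19.6% of genes.

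**Figure D1:**
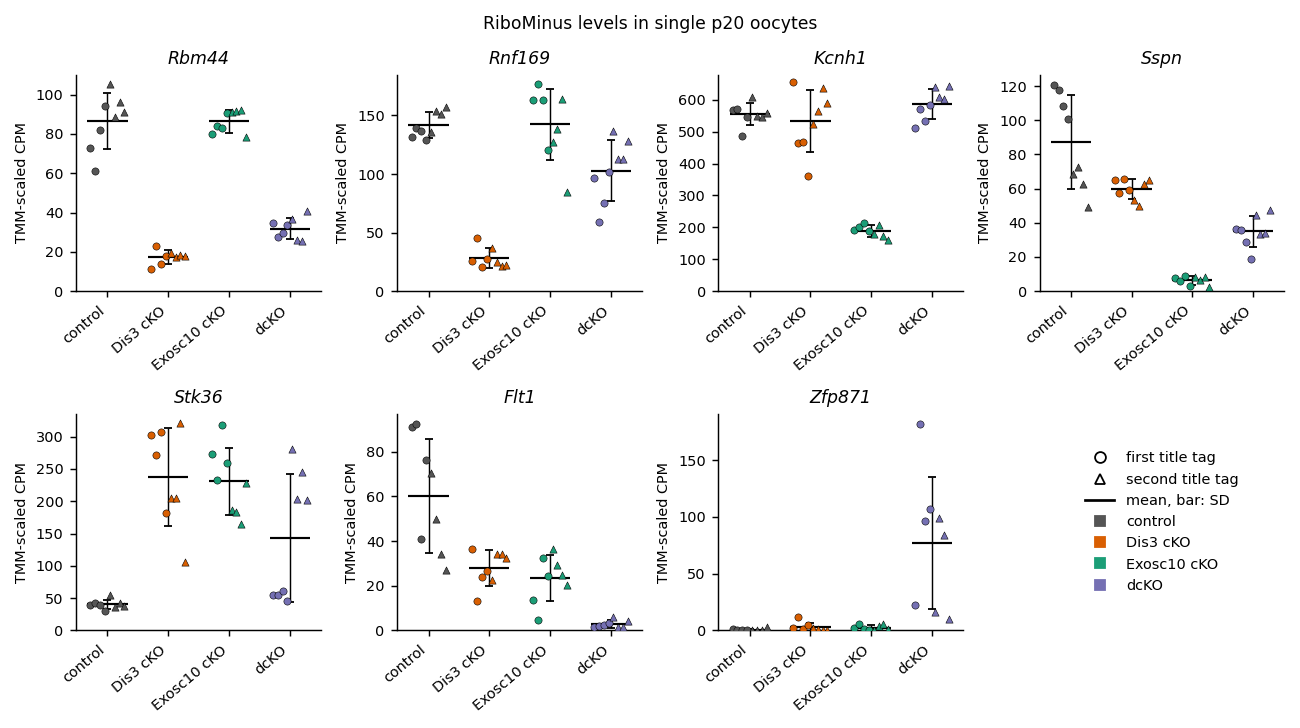
RiboMinus levels of the 7 genes in p20 oocytes (TMM-scaled CPM, linear axis from 0, each point 1 oocyte, lines the mean and bars the SD, n = 8 per group, circles and triangles the 2 title tags). Rbm44 and Rnf169 are low in Dis3 cKO, Kcnh1 and Sspn in Exosc10 cKO, Stk36 is high in both single knockouts and in the second tag of dcKO, and Flt1 and Zfp871 stand furthest from control in dcKO.

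In the comparisons that did not choose the genes, edgeR called 5 of the 7 in adult Dis3 cKO, all lower (Rnf169, Kcnh1, Sspn, Stk36 and Flt1), where 28.1% of 15334 genes were called, 15.7% higher and 12.4% lower. Groups did not overlap for 0 of the 7 in adults, against 7.08% of all genes. In poly(A) libraries 3 genes fell at GV (Sspn, Stk36 and Flt1; 21.9% of 17389 genes were called, 13.6% higher and 8.33% lower). The Sspn call at GV was lost without GV control oocyte 1 (log2 0.07, edgeR adjusted p = 0.95), which leaves 2. At GV3h Rnf169 rose and Sspn, Stk36 and Flt1 fell (38.6% called, 22.9% higher and 15.7% lower). In MII eggs Rbm44 and Rnf169 rose and Kcnh1, Stk36, Flt1 and Zfp871 fell (42.1% called, 27.3% higher and 14.8% lower). The Zfp871 call at MII was lost with the title number as a block (log2 -2.23, edgeR adjusted p = 0.16). Groups did not overlap for 0 of the 7 at MII, against 3.50% of all genes. In controls 0 of the 7 passed between GV and GV3h (2.71% called, 1.14% higher and 1.56% lower), and 0 of the 7 Dis3 effects differed between GV3h and GV (2.04% called, 1.37% higher and 0.667% lower). Without GV control oocyte 1, Sspn passed in both, at 3.08 (edgeR adjusted p = 0.00068) in controls and -3.28 (adjusted p = 0.0029) for the Dis3 effect. When counts were summed per title tag, which leaves 2 adult units per group, edgeR called 0 of 20190 genes in the adult comparison, with 3577 at an unadjusted p under 0.05; DESeq2 on the single oocytes called 4828. The adult calls therefore treat the 16 oocytes as independent.

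Rbm44 (ENSMUSG00000070732, chr1:91144973-91170799 of GRCm38.p6) encodes an RNA-binding protein known from the intercellular bridges that join male germ cells, and at p20 it was low where Dis3 was missing. Its level was 61.3 to 106 CPM in p20 controls (median 89.9), 78.3 to 92.1 in Exosc10 cKO (median 87.3), 11.1 to 23.0 in Dis3 cKO (median 17.9) and 25.6 to 40.7 in dcKO (median 31.6). Every Dis3 cKO and dcKO oocyte lay below every control, every dcKO oocyte lay above every Dis3 cKO oocyte, and Exosc10 cKO oocytes stayed within the control range. The log2 differences from control were -2.31 (SE 0.12) in Dis3 cKO, -0.01 (SE 0.12) in Exosc10 cKO and -1.43 (SE 0.12) in dcKO.

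Between dcKO and Exosc10 cKO, which lack Exosc10 in common, the log2 difference of Rbm44 was -1.43 (SE 0.12), with no overlap between the 8 and 8 oocytes. The groups did not overlap for 12.7% of all genes, and nothing is read from this, since the same p20 values chose the gene.

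In adult GV oocytes the level of Rbm44 in controls was 7.53 to 13.4 CPM (median 9.69), below every p20 control, a separation that 5.85% of 14756 genes showed. Adult Dis3 cKO oocytes ranged from 8.23 to 22.1 CPM (median 9.89) and overlapped the controls. The adult log2 difference was 0.17 (SE 0.20, edgeR adjusted p = 0.57), with a 95% interval of -0.25 to 0.60. It was -0.41 when libraries were scaled by their ERCC spike-in counts and -0.030 without oocyte 4 of AM1713. Age and any other difference between the 2 sets of libraries cannot be told apart.

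In poly(A) libraries Rbm44 moved in MII eggs. At GV it was 9.36 to 55.3 CPM in controls (median 12.99) and 9.29 to 20.5 in Dis3 cKO (median 14.2), a log2 difference of -0.36 (SE 0.28, edgeR adjusted p = 0.41) that becomes 0.14 without control oocyte 1. At GV3h it was 4.89 to 18.3 CPM in controls (median 12.4) and 10.6 to 21.5 in Dis3 cKO (median 15.3; log2 0.28, SE 0.29, adjusted p = 0.46). In MII eggs it was 3.59 to 23.0 CPM in controls (median 8.06) and 6.90 to 56.8 in Dis3 cKO (median 37.4). Of the 16 Dis3 cKO eggs, 11 lay above every control, those numbered 1 to 11 in the titles, and eggs 12 to 16 lay within the control range. The rise was 3.03-fold (log2 1.60, SE 0.30, edgeR adjusted p = 1.6e-05). The Dis3 effect was more positive at MII than at GV by 1.95 (SE 0.41, adjusted p = 0.00044 for the interaction, where 13.2% of genes were called, 9.28% higher and 3.88% lower), with an adjusted p of 0.12 when counts of 4 consecutive title numbers were summed. In controls Rbm44 fell from GV to MII (log2 -0.78, SE 0.33, edgeR adjusted p = 0.036, with 58.5% of genes called, 22.7% higher and 35.8% lower), and the value without GV control oocyte 1 was -0.19 (adjusted p = 0.63) and with ERCC scaling -2.66.

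Rnf169 (ENSMUSG00000058761, chr7:99920254-99981330, minus strand) encodes an E3 ubiquitin ligase that binds ubiquitylated chromatin at DNA double-strand breaks and limits 53BP1 recruitment. At p20 it resembled Rbm44 in the single knockouts but not in dcKO. Its level was 129 to 158 CPM in controls (median 138), 84.6 to 177 in Exosc10 cKO (median 151), 20.5 to 45.3 in Dis3 cKO (median 25.4) and 58.7 to 137 in dcKO (median 107). Dis3 cKO oocytes lay below all others, and dcKO oocytes lay above every Dis3 cKO oocyte, with 7 of 8 below every control. Against control the log2 differences were -2.33 (SE 0.16) in Dis3 cKO, 0.00 (SE 0.15) in Exosc10 cKO and -0.46 (SE 0.15) in dcKO.

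Between dcKO and Exosc10 cKO the log2 difference of Rnf169 was -0.46 (SE 0.15), and 2 of 8 dcKO oocytes lay below every Exosc10 cKO oocyte.

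Adult Rnf169 was 91.4 to 143 CPM in controls (median 122) and 34.6 to 104.7 in Dis3 cKO (median 69.2). The tags separated within the knockout: AM1713 oocytes were at 34.6 to 53.6 CPM, below every control, while AM1757 oocytes were at 84.7 to 104.7, with 1 of 4 below every control. Rnf169 fell 1.72-fold (log2 -0.78, SE 0.19, edgeR adjusted p = 0.0052; 0.31 with counts summed per tag).

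In poly(A) libraries the direction was opposite, with Rnf169 higher in Dis3 cKO at each stage. At GV it was 28.8 to 75.4 CPM in controls (median 40.5) and 64.2 to 158 in Dis3 cKO (median 72.7; log2 0.89, SE 0.35, edgeR adjusted p = 0.061, and 0.037 without control oocyte 1). Over 8 alternatives, fitted in edgeR or DESeq2, the GV log2 value of Rnf169 ranged from 0.60 to 1.03 and its adjusted p from 0.00020 to 0.46. At GV3h it was 1.48 to 43.3 CPM in controls (median 17.6) and 36.4 to 90.7 in Dis3 cKO (median 58.2), a 3.23-fold rise (log2 1.69, SE 0.37, adjusted p = 0.00015). In MII eggs it was 2.12 to 44.5 CPM in controls (median 9.10) and 27.1 to 76.6 in Dis3 cKO (median 35.9; log2 1.17, SE 0.36, adjusted p = 0.0063). The GV3h controls fell into blocks of consecutive title numbers, 28.8 to 43.3 CPM for oocytes 1 to 4 and 1.48 to 6.41 for 5 to 8. The MII controls split too, with eggs 1 to 5 at 2.12 to 13.8 CPM. MII control eggs 6 to 8 were at 33.4 to 44.5 CPM, within the Dis3 cKO range. With counts of 4 consecutive numbers summed, the adjusted p was 0.067 at GV3h and 0.21 at MII. In controls Rnf169 fell from GV to MII (log2 -1.27, SE 0.40, edgeR adjusted p = 0.0047; 0.18 with such sums), and the value was -3.17 with ERCC scaling. RiboMinus and poly(A) levels were normalised separately, so only the direction within each is set side by side.

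Kcnh1 (ENSMUSG00000058248, chr1:192189144-192510159, plus strand) encodes EAG1, a voltage-gated potassium channel. It was low in 1 of the 3 p20 knockouts. Its level was 487 to 610 CPM in p20 controls (median 555), 362 to 655 in Dis3 cKO (median 545), 159 to 213 in Exosc10 cKO (median 190) and 511 to 645 in dcKO (median 592). Every Exosc10 cKO oocyte lay below every control and every dcKO oocyte, so the level in dcKO, which also lacks Exosc10, was that of the controls. The log2 differences from control were -1.55 (SE 0.09) in Exosc10 cKO, -0.05 (SE 0.09) in Dis3 cKO and 0.09 (SE 0.09) in dcKO.

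Between dcKO and Dis3 cKO, which lack Dis3 in common, the log2 difference of Kcnh1 was 0.14 (SE 0.09), and 0.38 with ERCC scaling.

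Adult Kcnh1 was 556 to 696 CPM in controls (median 622) and 322 to 566 in Dis3 cKO (median 469), with 7 of 8 knockout oocytes below every control. It fell 1.32-fold (log2 -0.40, SE 0.08, edgeR adjusted p = 0.0014; 0.17 with counts summed per tag). In poly(A) libraries it was 315 to 505 CPM in GV controls (median 422) and 173 to 452 in Dis3 cKO (median 377; log2 -0.31, SE 0.24, adjusted p = 0.39). At GV3h it was 369.7 to 469 CPM (median 412) and 249 to 427 (median 306; log2 -0.38, SE 0.23, adjusted p = 0.20), and 0.00067 when only the GV3h groups entered the fit. In MII eggs it was 300.4 to 824 CPM (median 447) and 85.0 to 593 (median 271), a 1.898-fold fall (log2 -0.92, SE 0.23, edgeR adjusted p = 0.00072; 0.075 with sums of 4 numbers). In MII eggs both groups split by title number: control eggs 1 to 4 were at 300.4 to 394 CPM and 5 to 8 at 499 to 824, and Dis3 cKO eggs 1 to 4 were at 457 to 593 while 5 to 8 were at 85.4 to 227.

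Sspn (ENSMUSG00000030255, chr6:145931873-145965225, plus strand) encodes sarcospan, a membrane protein of the dystrophin-glycoprotein complex. At p20 it was lowest in Exosc10 cKO and intermediate in dcKO. Its level was 49.2 to 121 CPM in controls (median 86.5), 49.7 to 65.8 in Dis3 cKO (median 61.1), 2.14 to 8.68 in Exosc10 cKO (median 7.11) and 18.8 to 47.5 in dcKO (median 34.8). All Exosc10 cKO and dcKO oocytes lay below every control, and all Exosc10 cKO oocytes below every dcKO oocyte. The controls themselves split by tag, with tag 1 at 100.6 to 121 CPM and tag 2 at 49.2 to 72.5, in the same order as Dis3. Against control the log2 differences were -3.80 (SE 0.24) in Exosc10 cKO, -0.55 (SE 0.21) in Dis3 cKO and -1.32 (SE 0.21) in dcKO.

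Between dcKO and Dis3 cKO the log2 difference of Sspn was -0.77 (SE 0.21), and the 8 and 8 oocytes did not overlap, as for 14.6% of all genes.

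The adult comparison of Sspn turned on 1 control tag. AM1758 controls were at 47.2 to 61.5 CPM, AM1759 controls at 3.94 to 5.35 and all 8 Dis3 cKO oocytes at 3.30 to 6.25. Only the 4 AM1758 oocytes stood above the knockout range, and the same 4 had the higher Dis3 level given above; the part of Dis3 dosage in this was not tested. The fitted value was -2.82 (SE 0.59, edgeR adjusted p = 0.0016; 0.27 with counts summed per tag).

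In the poly(A) data, too, control oocytes of GV and GV3h fell into a high and a low set. At GV, control oocyte 1 was at 47.6 CPM and the other 7 controls at 1.80 to 4.72, against 0.308 to 7.16 in Dis3 cKO (median 3.44). The GV fall (log2 -1.35, SE 0.49, edgeR adjusted p = 0.039) was 0.07 (adjusted p = 0.95) without that oocyte. At GV3h, controls 5 to 8 were at 45.6 to 53.9 CPM and controls 1 to 4 at 2.43 to 6.03, against 0.9746 to 5.56 in Dis3 cKO (median 2.83). Sspn fell at GV3h by 3.15 on the log2 scale (SE 0.48, edgeR adjusted p = 2.0e-07), and 0.0026 with sums of 4 numbers, while controls 1 to 4 alone overlapped the knockout. In MII eggs it was 0.388 to 8.18 CPM in controls (median 5.77) and 0.115 to 14.9 in Dis3 cKO (median 4.93; log2 -0.01, SE 0.50, adjusted p = 0.99). The highest poly(A) Dis3 cKO oocyte of any stage was at 14.9 CPM.

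**Figure D2:**
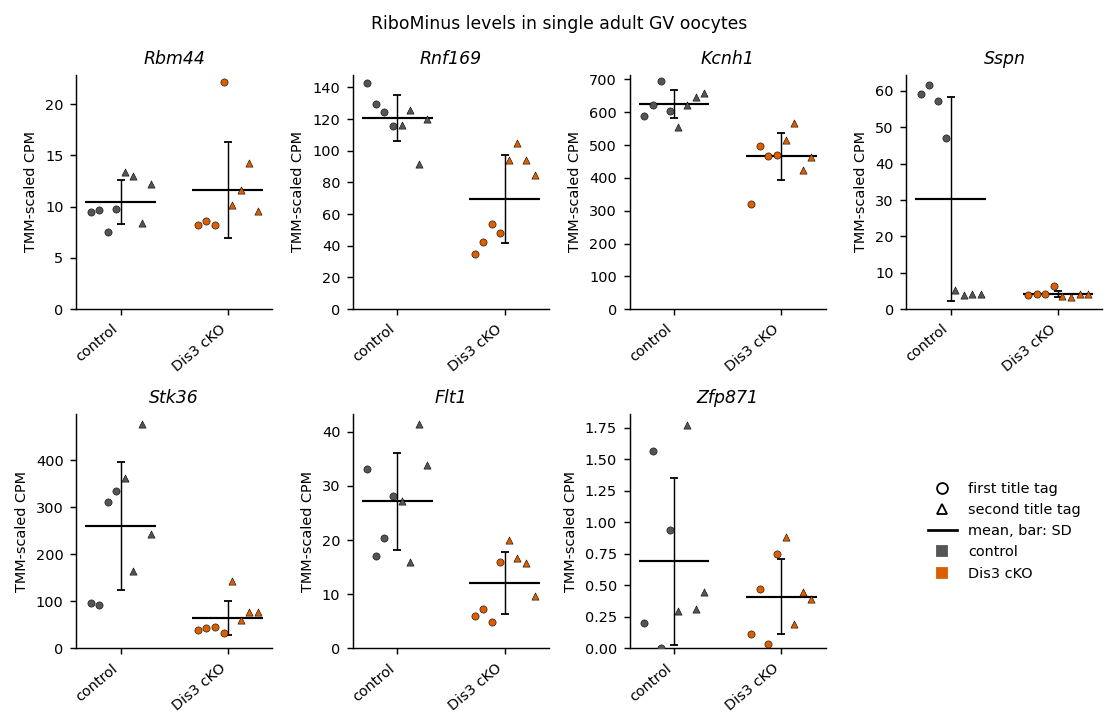
RiboMinus levels of the 7 genes in adult GV oocytes (TMM-scaled CPM, linear axis from 0, each point 1 oocyte, lines the mean and bars the SD, n = 8 per group, circles and triangles the title tags AM1758 and AM1759 in controls and AM1713 and AM1757 in Dis3 cKO). Sspn is at 47.2 CPM or more only in AM1758 controls, and all 4 AM1713 oocytes are below the controls for Rnf169.

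Stk36 (ENSMUSG00000033276, chr1:74601391-74636894, plus strand) encodes the fused homologue, a kinase-like protein linked to Hedgehog signalling and to motile cilia. The gene overlaps Rnf25, and whether the counting used strand is not given in the sources used here. Its promoter is printed because its difference from control was upward in p20 and downward in adult Dis3 cKO. The sequence runs 250 bases before to 50 after the start (RefSeq, GRCm38.p6, chr1:74601205-74601504, plus strand), in lower case with CG dinucleotides in capitals.
Stk36: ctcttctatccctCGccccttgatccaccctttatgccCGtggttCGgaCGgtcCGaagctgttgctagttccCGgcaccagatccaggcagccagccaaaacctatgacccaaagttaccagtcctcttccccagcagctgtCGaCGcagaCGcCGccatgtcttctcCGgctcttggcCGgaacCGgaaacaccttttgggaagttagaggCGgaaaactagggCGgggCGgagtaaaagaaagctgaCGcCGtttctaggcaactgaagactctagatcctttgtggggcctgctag
It holds 18 CG dinucleotides; 29.7% of 32851 promoters of that length hold as many or more, and the median is 7.

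At p20 Stk36 was 29.6 to 54.0 CPM in controls (median 39.8), 107 to 321 in Dis3 cKO (median 238) and 165 to 318 in Exosc10 cKO (median 231). Every single-knockout oocyte lay above every control. In dcKO the tags separated, with tag 1 at 45.6 to 60.5 CPM and tag 2 at 202 to 281. Exosc10 itself was 4.19 ± 0.833 CPM in tag 1 and 10.3 ± 4.59 in tag 2 of dcKO (SD, n = 4), and its part in the difference was not tested. The log2 differences from control were 2.56 (SE 0.31) in Dis3 cKO, 2.51 (SE 0.30) in Exosc10 cKO and 1.84 (SE 0.30) in dcKO.

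Between dcKO and Dis3 cKO the log2 difference of Stk36 was -0.72 (SE 0.29). All 4 oocytes of dcKO tag 1 lay below every Dis3 cKO oocyte and all 4 of tag 2 within their range.

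Adult Stk36 changed the other way. In adult controls it was 91.9 to 476 CPM (median 277), above every p20 control, as 5.85% of genes were separated between these groups, and age and any other difference between the library sets cannot be told apart. In adult Dis3 cKO it was 32.04 to 143 (median 53.3), with 7 of 8 oocytes below every control. It fell 3.94-fold (log2 -1.98, SE 0.35, edgeR adjusted p = 0.00035; 0.14 with counts summed per tag). Within the p20 RiboMinus libraries the same knockout had a log2 value of 2.56; the difference between ages was not tested, since the p20 value chose the gene.

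Poly(A) libraries showed the adult direction at every stage. At GV it was 83.4 to 190.1 CPM in controls (median 154) and 19.0 to 70.2 in Dis3 cKO (median 35.4), with no overlap, a separation shown by 3.16% of genes. At GV3h it was 97.8 to 220.4 CPM (median 192) and 19.2 to 109 (median 47.5), and in MII eggs 32.5 to 118 CPM (median 57.2) and 2.86 to 44.8 (median 13.97). Stk36 fell 3.93-fold at GV (log2 -1.97, SE 0.29, edgeR adjusted p = 2.0e-07), 3.43-fold at GV3h (log2 -1.78, SE 0.29, adjusted p = 7.2e-07) and 2.87-fold at MII (log2 -1.52, SE 0.29, adjusted p = 1.8e-05). With sums of 4 consecutive numbers these adjusted p-values were 0.0085, 0.0077 and 0.014. In controls Stk36 also fell from GV to MII (log2 -1.22, SE 0.35, adjusted p = 0.0020; 0.12 with such sums), and the value was -3.06 with ERCC scaling, which moved the median of all genes to -2.12.

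Flt1 (ENSMUSG00000029648, chr5:147561604-147726438, minus strand) encodes VEGFR1, a receptor tyrosine kinase that binds VEGF-A, VEGF-B and PlGF and in endothelium largely acts as a trap for VEGF-A. Its promoter and that of Zfp871 (ENSMUSG00000024298, chr17:32765496-32788287, minus strand, encoding a zinc finger protein) are shown because these genes had the largest opposite differences in dcKO and both had H3K27me3 peaks at the start. Both are from RefSeq on GRCm38.p6, minus strand, with CG dinucleotides in capitals, Flt1 at chr5:147725962-147726261 and the first of the 2 Zfp871 starts at chr17:32788238-32788537.
Flt1: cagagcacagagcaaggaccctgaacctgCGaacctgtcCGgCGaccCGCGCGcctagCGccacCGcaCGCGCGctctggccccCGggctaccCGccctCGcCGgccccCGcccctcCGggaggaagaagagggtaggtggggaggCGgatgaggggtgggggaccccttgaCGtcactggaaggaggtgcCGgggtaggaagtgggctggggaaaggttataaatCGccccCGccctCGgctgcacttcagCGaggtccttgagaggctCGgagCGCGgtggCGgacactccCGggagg
Zfp871: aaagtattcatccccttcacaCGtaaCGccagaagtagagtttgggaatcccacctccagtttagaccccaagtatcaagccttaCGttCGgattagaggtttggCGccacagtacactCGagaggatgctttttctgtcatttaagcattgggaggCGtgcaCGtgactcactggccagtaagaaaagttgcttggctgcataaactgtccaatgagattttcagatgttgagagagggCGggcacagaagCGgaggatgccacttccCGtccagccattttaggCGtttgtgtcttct
The Flt1 window holds 29 CG dinucleotides, and 12.9% of promoters hold as many or more; the Zfp871 window holds 12, and 39.6% do. The letters TATAAA, searched on both strands, occur in the Flt1 window, in that of Rnf169 and at the second start of Zfp871, but not in the windows printed for Stk36 and Zfp871; 13.6% of all promoters hold them.

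Flt1 was 27.2 to 92.4 CPM in p20 controls (median 60.2), 13.3 to 36.6 in Dis3 cKO (median 29.6), 4.62 to 36.5 in Exosc10 cKO (median 24.7) and 1.34 to 6.09 in dcKO (median 2.07). The single knockouts overlapped the controls, and every dcKO oocyte lay below every control and every Dis3 cKO oocyte. The log2 differences from control were -1.10 (SE 0.31), -1.37 (SE 0.31) and -4.44 (SE 0.36) in Dis3 cKO, Exosc10 cKO and dcKO. The difference of the dcKO value from the sum of the single-knockout values was -1.96.

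Adult Flt1 was 16.0 to 41.5 CPM in controls (median 27.7) and 4.86 to 20.003 in Dis3 cKO (median 12.8), with 6 of 8 knockout oocytes below every control. It fell 2.23-fold (log2 -1.16, SE 0.28, edgeR adjusted p = 0.0044; 0.17 with counts summed per tag). In poly(A) libraries it was 35.3 to 61.7 CPM in GV controls (median 44.1) and 3.13 to 35.9 in Dis3 cKO (median 10.1). At GV3h it was 34.6 to 111 CPM (median 55.5) and 2.703 to 30.6 (median 15.5), with no overlap, as for 9.28% of genes. In MII eggs it was 39.2 to 199 CPM (median 120.5) and 2.06 to 69.8 (median 23.9). Of the knockout oocytes, 14 of 15 at GV, 16 of 16 at GV3h and 14 of 16 at MII lay below every control. Flt1 fell 3.09-fold at GV (log2 -1.63, SE 0.33, edgeR adjusted p = 0.00012), 3.53-fold at GV3h (log2 -1.82, SE 0.33, adjusted p = 5.9e-06) and 5.22-fold at MII (log2 -2.38, SE 0.32, adjusted p = 8.4e-09). It was the only gene of the 7 that rose in controls from GV to MII (log2 1.48, SE 0.40, adjusted p = 0.00096), and ERCC scaling, which moved the median of all genes to -2.12, gave -0.39.

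Flt1 is best known from endothelium, so endothelial markers were read beside it. Of 8 listed, Cdh5 and Emcn were at 0 in p20 controls, and the sum of the 8, led by Pecam1, was 96.3 to 118 CPM in p20 controls, 90.3 to 116 in Dis3 cKO, 102 to 143 in Exosc10 cKO and 32.5 to 69.0 in dcKO. The part of such cells in the Flt1 levels was not tested. Of the VEGF ligands and receptors listed, 3 of 9 were tested at p20: 0 passed in either single knockout, and 2 fell in dcKO (27.1% of all genes were called lower there), the main VEGF receptor Kdr (log2 -2.14, SE 0.71, edgeR adjusted p = 0.011) and the co-receptor Nrp1 (log2 -1.07, SE 0.23, adjusted p = 0.00018).

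Zfp871 was highest in dcKO at p20. Its level was 0.117 to 2.85 CPM in p20 controls (median 0.371), from 2 to 58 counts, 0.538 to 11.3 in Dis3 cKO (median 1.48), 0 to 5.48 in Exosc10 cKO (median 1.73) and 10.4 to 182 in dcKO (median 90.1), from 118 to 2587 counts. Every dcKO oocyte lay above every control and every Exosc10 cKO oocyte, and 7 of 8 above every Dis3 cKO oocyte. The dcKO oocytes themselves varied widely. On the log2 scale the differences from control were 2.04 (SE 0.73), 1.73 (SE 0.72) and 6.72 (SE 0.78) in Dis3 cKO, Exosc10 cKO and dcKO, and the dcKO value was 2.95 above the sum of the singles. With 1 oocyte left out these differences ranged from 1.244 to 2.90, 1.46 to 2.60 and 6.40 to 7.56, each highest without control oocyte 4 of tag 2. The value in Dis3 cKO was lowest without its oocyte 2 of tag 1, that in Exosc10 cKO without its oocyte 3 of tag 2.

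In adults, for which no Exosc10 knockout was analysed here, Zfp871 was low in both groups. It was 0 to 1.77 CPM in adult controls (median 0.379) and 0.0379 to 0.886 in adult Dis3 cKO (median 0.421; log2 -0.71, SE 0.69, edgeR adjusted p = 0.47). In poly(A) libraries the highest oocyte of any group was at 5.42 CPM, in GV Dis3 cKO, and neither GV (log2 0.57, SE 0.90, adjusted p = 0.71) nor GV3h (log2 2.26, SE 1.01, adjusted p = 0.069) passed. The MII fall (log2 -2.90, SE 1.00, edgeR adjusted p = 0.015, and 0.16 with the title number as a block) rests on 2 control eggs with 24 and 16 counts. The other 6 controls were at 0, and 13 of 16 Dis3 cKO eggs were at 0, with 5 counts in the highest.

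**Figure D3:**
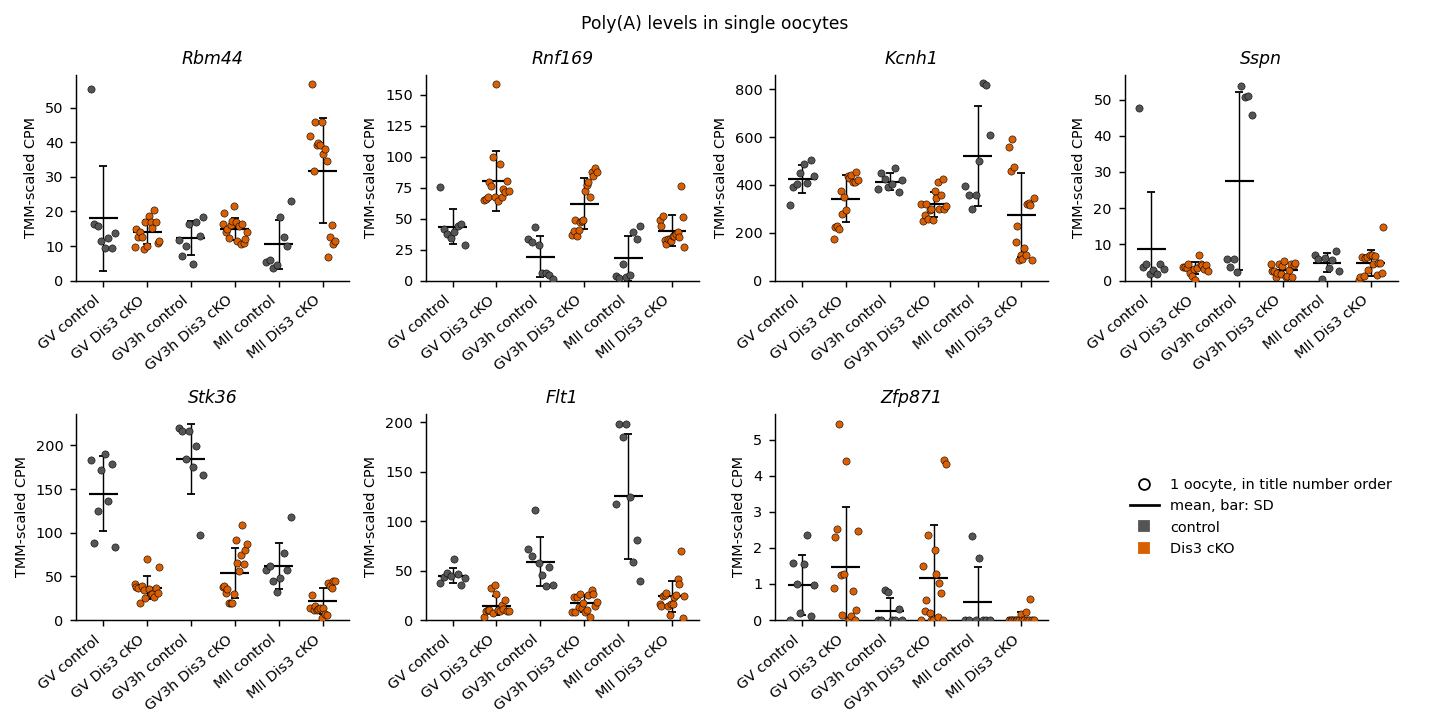
Poly(A) levels of the 7 genes in single oocytes at GV, GV3h and MII (TMM-scaled CPM, linear axis from 0, each point 1 oocyte placed in title number order, lines the mean and bars the SD, n = 8 controls and 15, 16 and 16 Dis3 cKO oocytes). Stk36 and Flt1 are lower in Dis3 cKO at all 3 stages, Rbm44 is high in MII eggs 1 to 11 of Dis3 cKO, and Sspn is at 45.6 CPM or more only in GV control 1 and GV3h controls 5 to 8.

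Side by side, the dcKO values did not equal the sum of the single-knockout values for any of the 7 genes. The dcKO value was higher than the sum by 0.88 for Rbm44, 1.87 for Rnf169, 1.70 for Kcnh1 and 3.03 for Sspn on the log2 scale. For each of these genes the dcKO value was nearer to control than the sum was. For Stk36 the difference from the sum was -3.24, also nearer to control. Only Flt1 and Zfp871 lay further from control than the sum. These sums share the 8 controls, and the genes were chosen on the same values, 5 on a single knockout and 2 on dcKO. Whether the choice set the order of dcKO and sum was not tested, and nothing is read from it.

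**Figure D4:**
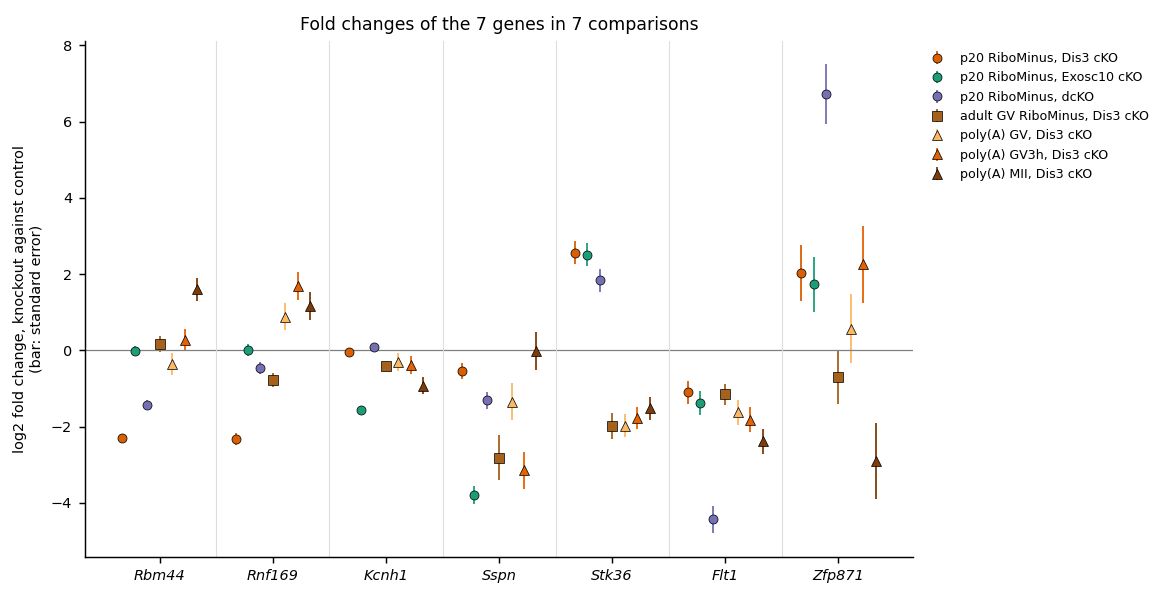
Log2 fold changes of the 7 genes against control (linear axis of log2 values, bars the SE) at p20 in Dis3 cKO, Exosc10 cKO and dcKO, in adult GV Dis3 cKO, and in poly(A) Dis3 cKO at GV, GV3h and MII. Stk36 lies above 0 in all 3 p20 knockouts and below 0 in adult and poly(A) Dis3 cKO, and Rnf169 lies below 0 in RiboMinus Dis3 cKO and above 0 in poly(A) Dis3 cKO.

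The partners of each gene were counted from 1 list per gene, and ERCC counts name the same list under spike-in scaling. Of all genes, 3.61% were called higher and 3.76% lower in p20 Dis3 cKO, 3.95% and 3.50% in Exosc10 cKO, and 26.6% and 27.1% in dcKO. Of 5 other intercellular bridge genes, 0 passed in either p20 single knockout and 5 fell in dcKO, led by the kinesin Kif23 (log2 -1.41, SE 0.14, edgeR adjusted p = 6.5e-10) and the bridge component Tex14 (log2 -1.02, SE 0.17, adjusted p = 4.6e-06); the list median was -0.95 against -0.01 for all genes, and ERCC scaling also gave 5 lower. Of 9 genes of ubiquitin signalling at DNA breaks, 0 passed in p20 Dis3 cKO, where Rnf169 was low, 1 fell in Exosc10 cKO (Mdc1, log2 -0.51) and 6 fell in dcKO (among them Brca1, log2 -1.35, and Rnf168, log2 -0.88, the ligase that writes the mark Rnf169 reads). With ERCC scaling 0 fell in Exosc10 cKO and 4 in dcKO. In adult Dis3 cKO 3 of these 9 fell (Mdc1 -0.57, Rnf168 -0.53, Brca1 -0.31), where 12.4% of all genes did, and ERCC scaling gave 7, with 6144 of 15334 genes lower. In poly(A) Dis3 cKO 2 of 9 fell at GV, 7 at GV3h and 5 at MII, where 1 rose; 8.33%, 15.7% and 14.8% of all genes were lower at these stages. With ERCC scaling 3, 3 and 2 fell and 2 rose at MII, where 2317, 1850 and 749 of 17389 genes were lower. The list medians were -0.47 in dcKO and -0.07 in adults, against -0.01 and 0.03 for all genes, and -0.10, -0.40 and -0.26 at GV, GV3h and MII, against 0.04, 0.07 and 0.16.

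Of the 7 other EAG, ERG and ELK channel genes 4 were tested at p20, none passed in Exosc10 cKO, and 2 fell in dcKO (Kcnh5, log2 -1.63, and Kcnh3, log2 -0.94), the group in which Kcnh1 was at the control level. In poly(A) Dis3 cKO 1 of the 4 rose at GV, 2 at GV3h and 1 at MII (1, 1 and 2 with ERCC scaling) and 0 fell, where 13.6%, 22.9% and 27.3% of all genes rose; Kcnh7 passed at each stage (2.20, 3.66 and 3.05), and the list medians were -0.25, 0.48 and 0.52. In adult Dis3 cKO 1 of these channel genes fell (Kcnh2, -0.51). Of 12 tested genes of the dystrophin-glycoprotein complex, 0 passed in either single knockout, and 2 rose and 3 fell in dcKO, among them Utrn, encoding utrophin (log2 -1.75, SE 0.42, edgeR adjusted p = 0.00069), and Sgcb, encoding beta-sarcoglycan (log2 1.13); with ERCC scaling 0 rose and 3 fell. The list median in dcKO was -0.15 against -0.01, and 5 of 12 called is a smaller share than the 53.7% of all genes. In the Hedgehog pathway, Gli2, a transcription factor gene, fell in Dis3 cKO (log2 -1.40, SE 0.37, edgeR adjusted p = 0.014), and the receptor gene Ptch1 rose in dcKO (log2 3.23, SE 0.59, adjusted p = 2.1e-05). Of 10 tested genes with a Zfp symbol within 1000000 bases of Zfp871, 3 rose and 4 fell in dcKO, with Zfp101 at 1.94, Zfp870 at 1.31 and Zfp563 at -1.17 (all log2), against 2 and 4 with ERCC scaling. Of all genes, 53.7% were called in dcKO, and ERCC scaling called 2833 of 15882 higher and 3238 lower there. The list median was -0.20 against -0.01 for all genes, and nothing is read from these counts of 10 genes. In p20 Dis3 cKO 2 of the 10 rose (Zfp870, log2 1.00, and Zfp955b, log2 0.54) and 0 fell, where 3.61% of all genes rose. In p20 Exosc10 cKO 0 rose and 1 fell (Zfp472, log2 -0.34), where 3.50% of all genes fell. With ERCC scaling 0 rose and 0 fell in either single knockout.

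Of the exosome and its adaptors, Exosc9, a core subunit, fell in adult Dis3 cKO (log2 -2.02, SE 0.25, edgeR adjusted p = 1.3e-05), p20 Dis3 cKO (-0.996, SE 0.19, adjusted p = 0.00030), p20 Exosc10 cKO (-0.60, SE 0.18, adjusted p = 0.038) and, in poly(A) data, GV Dis3 cKO (-1.20, SE 0.17, adjusted p = 7.1e-08). Apart from Dis3 and Exosc9, 1 further gene fell in p20 Dis3 cKO, the cytoplasmic relative Dis3l (-0.73, SE 0.11, adjusted p = 1.8e-05). Of the 18 genes tested at p20, 0 rose and 3 fell in Dis3 cKO (0 and 3 with ERCC scaling), 1 rose and 2 fell in Exosc10 cKO (0 and 1), and 3 rose and 8 fell in dcKO (3 and 6). In Exosc10 cKO the 2 that fell were Exosc10 and Exosc9. In adult Dis3 cKO 1 of 18 rose and 2 fell (0 and 11), where 15.7% of all genes rose and 12.4% fell, and ERCC scaling called 699 of 15334 higher and 6144 lower. In poly(A) GV 2 of 19 rose and 2 fell (0 and 4), where 13.6% of all genes rose and 8.33% fell, and ERCC scaling called 1265 of 17389 higher and 2317 lower. At GV3h 4 of 19 rose and 5 fell (3 and 2), where 22.9% of all genes rose and 15.7% fell. In MII eggs 8 of 19 rose and 5 fell (8 and 1), where 27.3% of all genes rose and 14.8% fell. ERCC scaling called 3046 genes higher and 1850 lower at GV3h, and 6535 higher and 749 lower at MII.

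Genes beside each member were read from the reference table, up to 3 with counts on each side, and their calls stand against the shares of all genes given above (12.4% lower in adults, 27.1% lower in dcKO). Beside Rnf169, 4 neighbours were tested and 1 fell in p20 Dis3 cKO: Lipt2, a lipoyltransferase gene 177947 bases away, from 18.4 ± 4.43 CPM in controls to 1.81 ± 1.30 in Dis3 cKO, with 18.8 ± 5.41 in Exosc10 cKO and 27.05 ± 4.83 in dcKO (SD, n = 8; log2 -3.33, SE 0.29, edgeR adjusted p = 6.1e-11). Adult Lipt2 was 17.2 ± 2.09 CPM in controls and 14.8 ± 4.07 in Dis3 cKO. In poly(A) Dis3 cKO it did not pass at GV (log2 1.03, SE 0.47, edgeR adjusted p = 0.11) and rose at GV3h (log2 2.03, SE 0.49, adjusted p = 0.00067) and MII (log2 2.24, SE 0.54, adjusted p = 0.00048), opposite to p20. Xrra1, 2430 bases from Rnf169, was -0.10 in p20 Dis3 cKO. Beside Rbm44, 0 of 3 tested neighbours passed in p20 Dis3 cKO, and 1 of 3 rose in adult Dis3 cKO. Beside Kcnh1, 1 of 5 fell (the long noncoding RNA Gm10516, log2 -3.59, SE 0.94) and 1 rose (the snRNA Gm22265, log2 2.20, SE 0.47) in Exosc10 cKO. Beside Sspn, Itpr2, an inositol trisphosphate receptor gene, fell in Dis3 cKO (-0.52), Exosc10 cKO (-0.58) and dcKO (-0.58); of its 5 tested neighbours 3 fell and 1 rose in dcKO. Rnf25, which overlaps Stk36, was 0.24 in Dis3 cKO (adjusted p = 0.24) and rose by 0.38 in Exosc10 cKO (adjusted p = 0.033), against 2.56 and 2.51 for Stk36. Beside Flt1, 0 of 2 passed in the single knockouts, 1 of 2 fell in dcKO and 2 of 2 fell in adult Dis3 cKO, and no neighbour of Zfp871 read in this way was tested.

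The genes whose levels most resembled a member over the 48 RiboMinus libraries, by Pearson r of log2 CPM among 17267 genes, were named 3 to a member. For Rbm44 they were Klhl12 (0.93), Gm8822 (0.93) and Ptprv (0.92), of which Klhl12 and Ptprv lie on chromosome 1, 43.3 and 43.9 megabases away. For Rnf169 they were Lrmda (0.92) and, on chromosome 7, Myo7a (0.91, 1.80 megabases) and Trim30d (0.89, 4.49 megabases). For Sspn the closest was Tm7sf3 (0.92, 0.637 megabases), followed by Frmd4b (0.79, 48.3 megabases), both on chromosome 6, and for Stk36, Nptx2 (0.73), Tmem175 (0.65) and Vil1 (0.59, 0.166 megabases). For Kcnh1 (Ncs1, Elmo1, Rpsa-ps10), Flt1 (Gpalpp1, Larp4, Esrrg) and Zfp871 (Cpeb2, Cdc7, Klhl22), r was 0.86 to 0.91 and none shared the chromosome. In all, 7 of 21 lay on the member's chromosome, which holds 4.62% to 7.70% of the genes placed, and 4 of 21 within 10 megabases, which holds 0.447% to 2.09%. Gm8822 had no position in the reference and is counted among the 21 as not on the chromosome. The libraries share depth and group structure, so these values are a description. Among the 21 pairs of members r ranged from -0.71 (Flt1 and Zfp871) to 0.50 (Kcnh1 and Sspn, and Rbm44 and Rnf169). The choice on p20 values set Flt1 and Zfp871 in opposite directions in dcKO. It set each of the other pairs low in the same single knockout, so nothing is read from these values.

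CUT&Tag was read at the starts of the genes as the authors' peaks in each library, within 1000 bases on either side, with no test, since 3 libraries against 3 cannot reach an exact p below 0.10. An H3K27me3 peak lay at the Flt1 start in 3 of 3 adult control and 3 of 3 p20 control libraries and in 0 of 3 adult Dis3 cKO and 0 of 3 p20 dcKO libraries, and the same held in the printed 300-base window. Of 17492 genes, 209 had this pattern in adults, out of 1966 with a peak in all 3 adult controls, and 300 at p20, out of 3095 with a peak in all 3 p20 controls; 109 had it in both. The peak lists of the knockouts were longer, with 224934 to 276316 peaks in adult Dis3 cKO against 87394 to 202628 in adult controls, and 244827 to 299716 in p20 dcKO against 151535 to 159895 in p20 controls. Over the whole Flt1 body, peaks covered 4.83% to 7.14% in p20 controls and 16.5% to 21.4% in dcKO, a separation in this direction that 2892 of 21900 protein-coding genes (13.2%) showed, against 1969 in the opposite direction. In adults the cover was 2.01%, 2.49% and 24.3% in controls, the last in the control library with the longest list, and 3.18% to 6.97% in Dis3 cKO. A Pol II peak at the Flt1 start was in 1 of 9 libraries.

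At Zfp871 an H3K27me3 peak lay at a start in 2 of 3 adult control, 3 of 3 adult Dis3 cKO, 2 of 3 p20 control and 1 of 3 p20 dcKO libraries. With only peaks above the median signal these counts were 1, 1, 2 and 0, and in the 300-base windows 1, 3, 1 and 0, so the order of the adult groups depended on the setting. Pol II peaks covered none of the gene in all 9 libraries, which do not include dcKO. Stk36 had no H3K27me3 peak in any of 12 libraries. At a start of Sspn such a peak lay in 2 of 3 adult control and 1 of 3 p20 control libraries. In adult Dis3 cKO and in p20 dcKO it lay in 0 of 3. At the Kcnh1 start a peak lay in 1 of 3 adult control libraries and in 0 of 3 of each other group. In the 300-base windows neither gene had a peak. Pol II peaks covered 2.83%, 10.1% and 14.9% of the Stk36 body in adult controls, 17.3%, 26.8% and 40.2% in adult Dis3 cKO and 14.7% to 17.4% in p20 controls. Every adult Dis3 cKO library thus had more cover than every adult control, as for 2120 of 21900 protein-coding genes (9.68%), while 32 genes showed the opposite order. The Pol II lists held 19697 to 35843 peaks in adult controls, 30311 to 122606 in Dis3 cKO and 74287 to 82446 in p20 controls. Pol II cover of Kcnh1 was 5.29% to 6.40% in adult controls, 3.92% to 17.1% in adult Dis3 cKO and 12.8% to 15.3% in p20 controls.

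**Figure D5:**
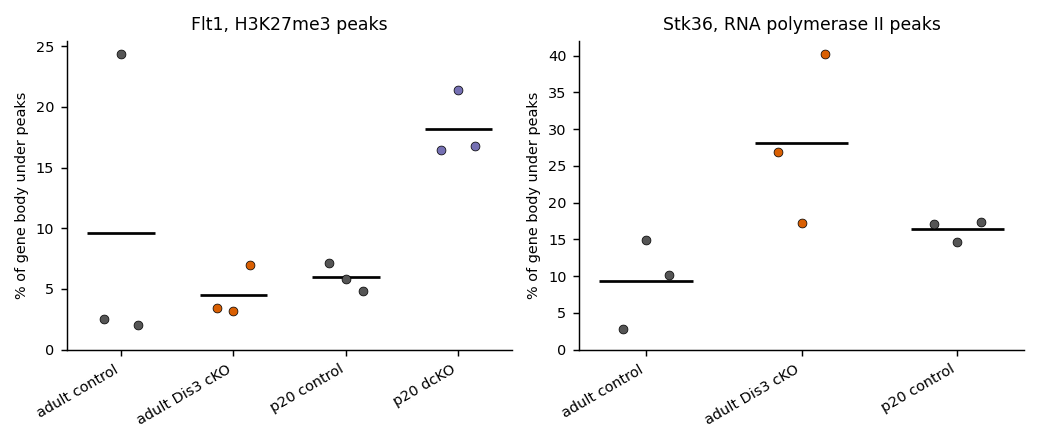
Percent of the gene body under the authors' peaks in each CUT&Tag library (linear axis from 0, each point 1 library, lines the mean, n = 3 per group), for H3K27me3 over Flt1 and Pol II over Stk36. The 3 p20 dcKO libraries lie above the p20 controls for Flt1, and the 3 adult Dis3 cKO libraries above the adult controls for Stk36.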

How the data were processed

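Gene counts of 119 single-oocyte libraries (71 poly(A), 48 RiboMinus) and 21 CUT&Tag peak lists were used as deposited. The counts are whole reads per gene made by the authors; the submitters' processing notes name cutadapt 2.5, FastQC 0.11.8, STAR 2.7.2a, SAMtools 1.9, HTSeq 0.9.1, R 3.5.1, DESeq2 1.24.0, SEACR and the genome build mm10. The strand setting of the counting is not given in the sources used here. The signal of each peak was deposited by the authors in the layout SEACR writes, per library, and the series' design text states that each CUT&Tag library was reduced at random to one common number of reads, with duplicates kept. IgG libraries were not analysed here.

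Tests on counts used the quasi-likelihood F test of edgeR 4.0.16 (R 4.3.3), with TMM scaling, the filterByExpr rule for low counts and Benjamini-Hochberg adjustment over all genes tested (threshold 0.05), in 1 fit for poly(A), 1 for p20 and 1 for adult libraries. ERCC spike-ins were left out of gene counts and served as an alternative scaling. DESeq2 1.42.0, DESeq2 size factors, no filter on low counts, only the groups compared, the title number as a block, sums per title tag and left-out oocytes were the other alternatives. Sums over 4 consecutive title numbers, poly(A) data without GV control oocyte 1 and single left-out RiboMinus oocytes were added after the data were seen. The code was tested on simulated data.

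The members, lists and tests were chosen with earlier results of these data known. Named genes are the 7 members, Dis3 and Exosc10, the 3 largest called changes of each list, up to 3 genomic neighbours on each side and the 3 genes most like each member; from these the text names some. Levels were compared within an assay only. The p20 comparisons, dcKO against each single knockout included, were fitted over all genes and are given for the members without a test. Neighbours and promoters come from RefSeq tables of GRCm38.p6, where 6 of the 7 genes had a promoter entry. Bases were read as 250 before to 50 after a start. Some results of the lists are not reported here.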

Additional observations from a re-analysis of the deposited data

Results flagged for a closer look

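Of 63 groups of 4 to 10 oocytes examined for 1 oocyte far from the others, 10 were picked out, where chance picks about 1 in 20. GV control oocyte 1 of the poly(A) data was picked out for 3 genes: Rbm44 was at 55.3 CPM against 9.36 to 16.4 in the other controls, Rnf169 at 75.4 against 28.8 to 46.0, and Sspn at 47.6 against 1.80 to 4.72. Also in poly(A) controls, Stk36 was at 97.8 CPM in GV3h oocyte 7 against 167 to 220.4, and Flt1 at 61.7 in GV oocyte 5 against 35.3 to 47.7.

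In adult Dis3 cKO, oocyte 4 of AM1713 was picked out for Rbm44, at 22.1 CPM against 8.23 to 14.2, and for Sspn, at 6.25 against 3.30 to 4.28, and oocyte 1 of AM1757 for Stk36, at 143 against 32.04 to 77.6. At p20, Zfp871 was at 2.85 CPM in control oocyte 4 of tag 2 against 0.117 to 0.883, and at 11.3 in Dis3 cKO oocyte 2 of tag 1 against 0.538 to 4.83.

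Of 14 tests of whether the Dis3 cKO effect on a member differed between poly(A) stages, 1 passed in edgeR. The Rbm44 effect was more positive at MII than at GV by 1.95 on the log2 scale (edgeR adjusted p = 0.00044). Of all genes, 13.2% were called for MII against GV and 2.04% for GV3h against GV. The Rbm44 call was lost when counts of consecutive title numbers were summed (edgeR adjusted p = 0.12).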

How the results depend on the processing

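Of 1312 values recomputed under alternatives, 1265 kept their direction and side of the threshold or, where untested, moved by less than the spread between oocytes, 21 lost a call, 9 gained one, 14 reversed and 3 moved. Counts of called genes that changed by over 1.5 times were as follows. Sums over 4 consecutive title numbers gave 0 for control GV3h against GV (main 471), 1932 for Dis3 cKO at GV (3806), 1 for the GV3h interaction (355) and 335 for the MII interaction (2287). Sums per title tag gave 0 in adults (4305), 286 for p20 Dis3 cKO (1171) and 174 for p20 Exosc10 cKO (1183). ERCC scaling gave 118 for control GV3h against GV, 15275 for control MII against GV (10178), 5237 for the MII interaction, 6843 in adults, 364 for p20 Exosc10 cKO and 5015 for dcKO against Exosc10 cKO (7809). With only the groups compared the counts were 2083 for control GV3h against GV, 841 and 1403 for the GV3h and MII interactions and 4336 for Dis3 cKO at MII (7315). The GV3h interaction gave 549 in DESeq2 and 559 without GV control oocyte 1. Within the 300-base promoter windows, 11 pairs of a member and a library had an H3K27me3 peak and 0 had a Pol II peak.

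Tested values that reversed were, with ERCC scaling, Rbm44 in adults (-0.41), Kcnh1 in control GV3h against GV (0.20), control MII against GV (-1.58) and the GV3h interaction (0.11), Sspn at MII (0.39), and Flt1 in control MII against GV (-0.39) and the GV3h interaction (0.24). Without GV control oocyte 1, Rbm44 at GV was 0.14, and Sspn was 0.068 at GV, 0.67 in control MII against GV and -0.11 in the MII interaction. Rbm44 in adults ranged from -0.030 (without AM1713 oocyte 4) to 0.23 with 1 oocyte left out, Sspn at MII was 0.041 without Dis3 cKO egg 15, and Kcnh1 in control GV3h against GV was 0.035 with sums of 4 numbers. The cause was not tested. Untested p20 values near 0 also changed sign with 1 oocyte left out: Rbm44 (-0.064 to 0.043) and Rnf169 (-0.046 to 0.088) in Exosc10 cKO and Kcnh1 (-0.11 to 0.013) in Dis3 cKO.

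ERCC scaling moved the median log2 value of all genes to -0.52 in adults, -0.31 in p20 Dis3 cKO, -0.23 at GV, 0.52 at MII and 0.26 in dcKO against Dis3 cKO. The share of calls that were higher went from 55.9% to 10.2% in adults, 49.0% to 12.8% in p20 Dis3 cKO, 62.0% to 35.3% at GV, 64.8% to 89.7% at MII, 50.5% to 73.1% in dcKO against Dis3 cKO, 38.8% to 0.380% in control MII against GV, 42.3% to 55.9% in control GV3h against GV, and 67.3% to 90.0% and 70.5% to 97.7% in the GV3h and MII interactions.

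With 1 RiboMinus oocyte left out, counts ranged from 3834 to 4608 in adults, 949 to 1409 in p20 Dis3 cKO, 924 to 1360 in Exosc10 cKO, 8083 to 8713 in dcKO, 7710 to 8408 for dcKO against Dis3 cKO and 7342 to 8089 for dcKO against Exosc10 cKO. Same-numbered oocytes of different groups deviated together little (mean correlation 0.012 over 142 poly(A) pairs, 12 of them over 0.1, and 0.0076 over 48 p20 pairs, 4 over 0.1), so the numbers were not taken to pair oocytes. With the title number as a replicate block, 3648 genes were called at GV, 6492 at GV3h, 6826 at MII, 1143 in p20 Dis3 cKO, 1106 in Exosc10 cKO and 8412 in dcKO. Under that replicate block Sspn at GV was -0.92 (edgeR adjusted p = 0.30), Zfp871 at MII -2.23 (0.16) and Rbm44 in control MII against GV -0.75 (0.055), and these 3 calls were lost; no other call of a member changed under the block. Low counts limit Zfp871 outside dcKO.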
